A study of Mus musculus with 4 samples.

Results

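Fraction p was compared with fraction m of hepatic macrophages, which were sorted from mouse liver under names that combine F4/80 (encoded by Adgre1) and CD11b (encoded by Itgam) with the letter p or m. The labels do not spell out the letters, so they are used here as names only. The comparison takes all 4 of the 4 arrays of the series: 2 arrays of fraction p and 2 arrays of fraction m, chosen by their titles. The mice were male C57BL/6J animals with a disease model called CRCLM in the labels, from a study of VEGFC and the lymphatic spread of colorectal cancer in the liver. In 1 pair of arrays, fraction m and fraction p came from the group given anti-CCL3 antibody. In the other pair both fractions came from the group given isotype antibody, which the labels describe as without treatment. Strain, sex, tissue, labelled cell type and disease model were shared by all 4 arrays. Each combination of fraction and antibody had 1 array, and the labels do not say how many animals were pooled for an array or whether the 4 arrays came from separate animals. Any p-value therefore measures only the spread left among these 4 arrays, which may be technical, and precision is limited by the number of arrays.

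F4/80 is an adhesion receptor of mature macrophages such as Kupffer cells, the resident macrophages of the liver sinusoids. CD11b is the alpha subunit of complement receptor 3 and marks monocytes, monocyte-derived macrophages, neutrophils and some NK cells. Sorting on both is commonly used to separate resident macrophages from recently recruited myeloid cells. CCL3 is a chemokine that attracts monocytes and macrophages. Whole-transcript arrays also carry probe sets for many RNAs that are not messengers, so differences between fractions can be described by kind of transcript.

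All values are deposited log2 signals. A paired difference is fraction p minus fraction m within an antibody group, so a negative value means lower signal in fraction p, and a log2 difference of 1 is a doubling. A transcript cluster is the array's unit for a locus and some genes have several. Each result is given on the deposited values and after quantile normalisation, which forces the 4 arrays onto a shared distribution. The median of the transcript clusters lay between 6.18 and 6.21 on the 4 arrays. The 99th percentile was 15.6 and 15.2 in m and p after anti-CCL3, and 15.2 and 14.5 after isotype antibody, so in both pairs the bright end was lower in fraction p before quantile normalisation. The isotype array of fraction p stood apart: across clusters it correlated with the others at 0.947 to 0.955, against 0.967 to 0.973 among the other 3. On it 175 clusters lay 3 or more below all other arrays, against 0 to 7 on the others. The anti-CCL3 pair does not include this array. Its median paired difference on deposited values was -2.59 for the mitochondrial clusters and -1.75 for the small nucleolar clusters between Ube3a and Ipw. These values may still depend on the array that stood apart, since it is not given whether the authors processed the 4 arrays together. Quantile normalisation used all 4 arrays. The isotype differences and the fitted values use the array that stood apart directly. The 5222 negative-control probe sets had a median of 6.34 and an interquartile range of 5.27 to 7.84.

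The markers that name the fractions had nearly equal signal in both, at the level of the negative controls. The Itgam signal was 6.37 and 6.36 in m and p after anti-CCL3, and 6.18 and 6.15 after isotype antibody. Adgre1 had 6.41 and 6.29 after anti-CCL3, and 6.50 and 6.54 after isotype antibody. Both lay near the middle of the negative controls: 48.3% of them had a lower mean signal than Itgam and 52.0% a lower one than Adgre1. Their fitted differences were -0.02 ± 0.11 (SE, 4 arrays) and -0.04 ± 0.12, with adjusted p-values of 0.98 and 0.95 in limma. The label of the fractions could therefore be neither borne out nor contradicted from these messengers. The target of the antibody, Ccl3, had 7.80 and 7.64 after anti-CCL3, and 7.99 and 7.44 after isotype antibody.

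Fraction p had much lower signal than fraction m for transcripts of the mitochondrial genome and for a tandem cluster of small nucleolar RNAs on chromosome 7, in both antibody groups. Folds given here are those of the median paired difference over clusters, not of the median signal. By this measure the 30 mitochondrial clusters were 6.04-fold lower in either pair. The 133 small nucleolar clusters between Ube3a and Ipw were 3.36-fold lower after anti-CCL3 and 4.93-fold lower after isotype antibody. The adjacent 37 clusters between Ipw and Snrpn were 4.21-fold lower in fraction p after anti-CCL3 but 2.92-fold higher after isotype antibody. Most protein-coding genes, including the macrophage and leukocyte markers, differed little, at signals near those of the negative controls. The largest protein-coding class had a median signal of 6.07, against 6.34 for the negative controls. Small differences at that level do not show that expression was alike.

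**Figure D1:**
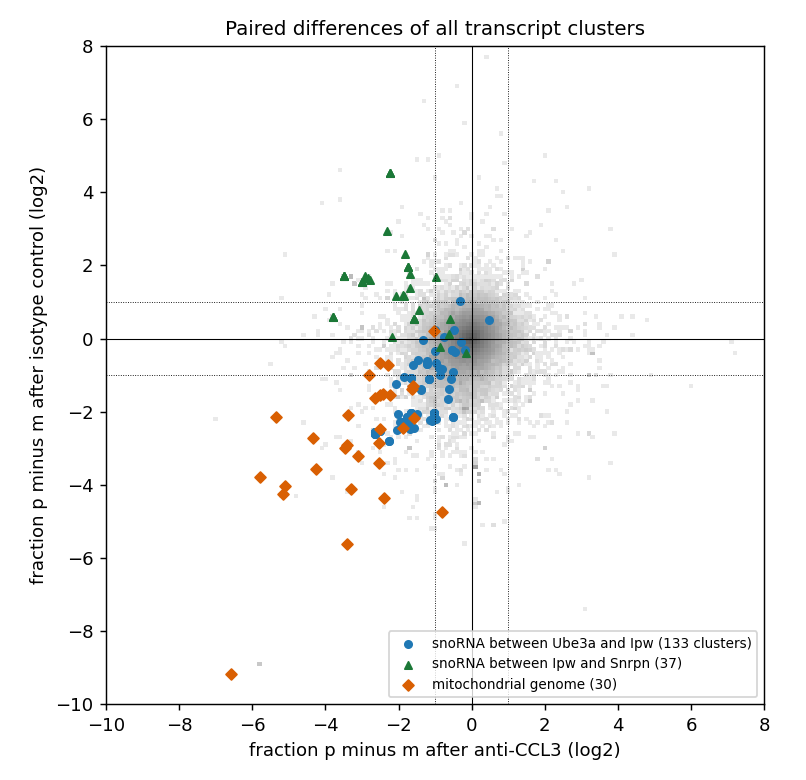
Each grey square is a bin of transcript clusters (darker means more clusters), with the paired difference after anti-CCL3 on the horizontal axis and that after isotype antibody on the vertical axis, both log2 fraction p minus m on deposited values. Of the 30 mitochondrial clusters 29, and most of the 133 clusters between Ube3a and Ipw, lie at lower left; 35 of the 37 clusters between Ipw and Snrpn lie at upper left. Dotted lines mark differences of 1.

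A few microRNAs had large differences of the same sign in both pairs, and their mature sequences are shown so that they can be told from relatives of similar name. Of 1004 microRNA clusters 14 (1.39%) were lower and 7 (0.697%) higher by 1 or more in both pairs, while 25 passed 1 in opposite directions. The same shares were 0.861% and 0.114% of all clusters, and 6.36% and 4.12% of the negative controls. MicroRNAs are short RNAs that pair with messengers chiefly through the seed, bases 2 to 8 from the 5′ end, which is in capitals. The sequences are those of RefSeq for GRCm38.p6. Mir340, Mir7093 and Mir6244 had lower signal in fraction p in both pairs:
mmu-miR-340-5p: uUAUAAAGcaaugagacugauu
mmu-miR-340-3p: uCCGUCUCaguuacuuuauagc
mmu-miR-7093-5p: cAGGAUGAcagaaggaaaaccu
mmu-miR-7093-3p: uUUCCAUCugucauccugcag
mmu-miR-6244: gGGGGCGUggaauuaucgggu
Mir6363, Mir7073, Mir450b and Mir6338 had higher signal in fraction p in both pairs:
mmu-miR-6363: uGUAGACUggacuguccucaaa
mmu-miR-7073-5p: uGGGGGAAuugaaagacuauga
mmu-miR-7073-3p: aUAGCCUUuuccuccccaacag
mmu-miR-450b-5p: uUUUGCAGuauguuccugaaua
mmu-miR-450b-3p: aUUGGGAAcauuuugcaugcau
mmu-miR-6338: cUGGUUUCucucauuugugcu
No seed was shared between any of these mature RNAs. The array has a cluster for each gene and does not separate the arms.

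The gene-level fit asked which genes differed between fractions over both antibody groups. Of 15354 genes tested, 0 (0%) passed an adjusted p of 0.05 in limma with antibody as a second term, and the smallest adjusted p was 0.397. At an unadjusted p below 0.05 there were 1427 genes, 263 higher and 1164 lower in fraction p. This count was made on deposited values, where 36.2% of all tested genes were lower and 19.1% higher in both pairs by any amount. The median fit of all tested genes was -0.05 on deposited values and 0.01 after quantile normalisation. On simulated data the same test recovered 0% of 200 genes changed by 2 on the log2 scale and 79.0% of those changed by 4, so changes of 2 on that scale would not have been called with 1 residual degree of freedom. An exact sign-flip test over 2 pairs cannot give a p below 0.5. The results that follow are therefore paired values without a call.

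As a description, genes were counted that differed by 1 or more in both pairs. On deposited values 242 genes (1.58%) were lower in fraction p and 17 (0.111%) higher. After quantile normalisation the counts were 151 (0.983%) and 29 (0.189%), and 149 and 17 genes met the rule on both scales. Small nucleolar RNAs made up 119 of the 242 genes with lower signal, 49.2%, and 105 of these came from the chromosome 7 locus. Pseudogenes gave 51 of 2800 tested (1.82%), small nuclear RNAs 21 of 696 (3.02%) and microRNAs 12 of 587 (2.04%), against 1.58% of all tested genes. After quantile normalisation these 3 classes gave 18, 6 and 7. The largest class, protein-coding genes outside the special families, gave 14 of its 7349 tested genes on deposited values and 3 after quantile normalisation. The 242 genes held 165 distinct profiles, since copies of near-identical sequence can carry identical values on all arrays.

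Over all 65956 transcript clusters, 568 (0.861%) were lower by 1 or more in both pairs and 75 (0.114%) higher. After quantile normalisation these were 315 (0.478%) and 135 (0.205%). The negative controls, whose values scatter more, gave 6.36% lower and 4.12% higher on deposited values, so a large paired difference in a single cluster is not rare among probe sets without a target. Across clusters the correlation between the 2 pairs of differences was 0.16 and became 0.09 after quantile normalisation; across the negative controls it was 0.05. Clusters are not independent replicates, and no p is given. The shift also moved with brightness. For clusters with a mean signal from 10 to 12 the median differences were -0.38 and -0.57 after anti-CCL3 and isotype antibody, and after quantile normalisation they were -0.03 and 0.06.

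**Figure D2:**
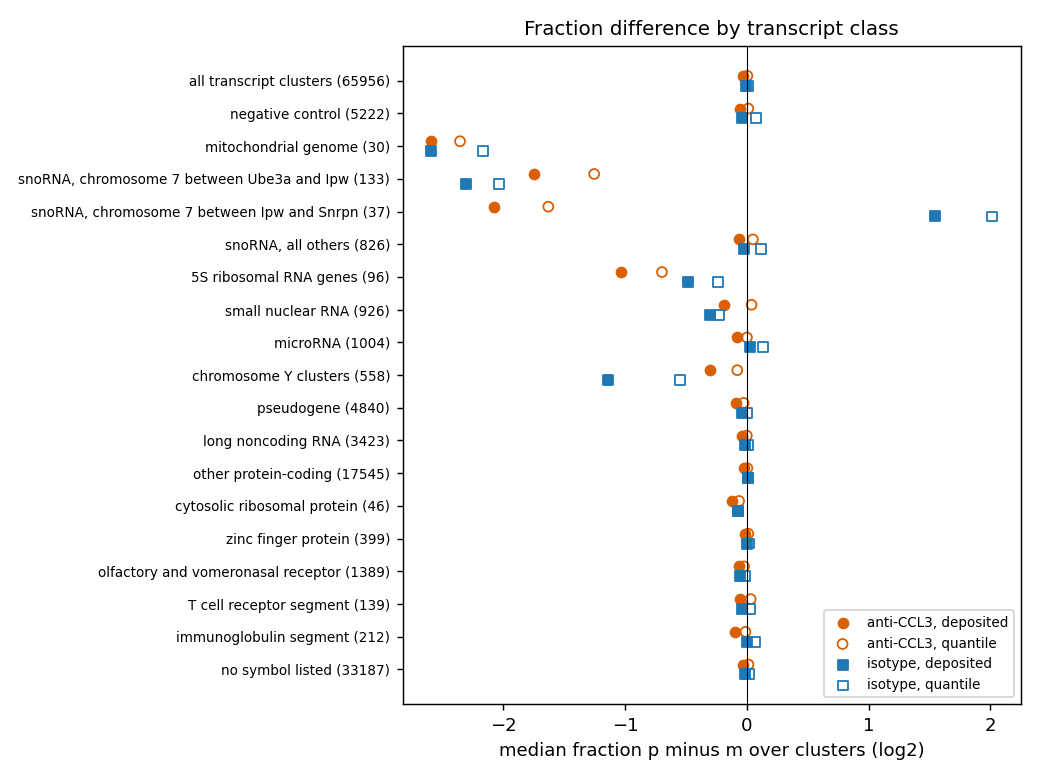
Median paired difference (log2 fraction p minus m) of each transcript class, with its number of clusters in parentheses. Circles show the anti-CCL3 pair and squares the isotype pair; filled symbols are deposited values and open symbols quantile-normalised ones. The mitochondrial genome stands at -2.59 in both pairs, the 2 stretches of the chromosome 7 locus lie on opposite sides of 0 in the isotype pair, and the 5S and Y chromosome classes are below 0 in both pairs.

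The mitochondrial genome encodes subunits of the respiratory chain and of ATP synthase, 2 ribosomal RNAs and the mitochondrial transfer RNAs, all transcribed in the organelle. It was read by 30 clusters. Their median signal was 13.4 and 9.89 in m and p after anti-CCL3, and 12.3 and 8.77 after isotype antibody. The median paired difference was -2.59 in both pairs, and -2.35 and -2.17 after quantile normalisation. Lower signal in fraction p in both pairs was seen in 29 of 30 clusters, against 30.3% of all clusters, and 26 of 30 (86.7%) were lower by at least 1 in both, against 0.861% of all clusters. After quantile normalisation 21 clusters (70.0%) remained past 1 in both pairs. Bright clusters were lower by 1 or more in both pairs more often. Of all clusters with a mean signal from 10 to 12, 10.2% were on deposited values and 5.67% after quantile normalisation. In 29 of 30 clusters both fraction p arrays lay below both fraction m arrays, as they did in 20.5% of all clusters; the reverse order was seen in 15.9% of all clusters. With 2 arrays against 2, groups that do not overlap are thus common, and the same background applies to single genes described below. The exception was an unnamed cluster at the level of the negative controls, with a mean of 6.16.

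Complex I, the NADH dehydrogenase, had clusters of a single gene for ND6, ND3 and ND2. ND6 had 19.5 and 17.0 in m and p after anti-CCL3, and 19.0 and 16.2 after isotype antibody. ND3 had 14.1 and 10.6 after anti-CCL3, and 13.95 and 10.95 after isotype antibody. Fitted differences were -2.70 ± 0.15 (SE) for ND6 and -3.24 ± 0.18 for ND3, each with an adjusted p of 0.40 in limma. ND2, a further complex I subunit, was at 8.24 and 6.63 after anti-CCL3 and at 7.69 and 6.38 after isotype antibody.

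Cytochrome c oxidase, the terminal enzyme of the chain, was read through COX1 and COX2. COX1 had 13.4 and 10.6 in m and p after anti-CCL3, and 11.6 and 10.6 after isotype antibody. The isotype difference of -1.004 was less than that of -2.80 after anti-CCL3, and after quantile normalisation it was -0.26. COX2 had 7.93 and 5.51 after anti-CCL3, and 7.12 and 5.60 after isotype antibody, so that its fraction p signals lay below the negative-control median. The small ribosomal RNA mt-Rnr1 had 16.9 and 13.8, and 15.8 and 12.6, in the same order. The lysine transfer RNA mt-Tk differed most between pairs, from 10.1 to 9.27 after anti-CCL3 and from 9.77 to 5.03 after isotype antibody.

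The other 4 named clusters span several mitochondrial genes, among them ATP6 and ATP8 of ATP synthase, COX3 and CYTB, and differed by -2.51 to -3.41 after anti-CCL3 and by -2.47 to -4.11 after isotype antibody. The remaining 19 carry no gene name, and the most extreme of all 30 was of this kind. It had 16.5 and 9.89 in m and p after anti-CCL3, and 15.7 and 6.53 after isotype antibody, a pair of differences of -6.59 and -9.19.

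Respiratory-chain genes of the nucleus stood near 0, but most were dim. Of 40 with a probe set, 30 had a mean signal below the negative-control median and 1 above the negative-control upper quartile. Values at that level cannot show whether the fractions differed. Of 42 listed nuclear-encoded members, 13 were tested, and their median fitted difference was 0.02 (0.04 after quantile normalisation), against -0.05 (0.01) for all tested genes. None of the 13 passed the test; 3 were higher and 4 lower in both pairs, where 19.1% of all tested genes were higher and 36.2% lower in both. The highest was Cox5b, a subunit of cytochrome c oxidase, with -0.02 and 0.97 in the anti-CCL3 and isotype pairs. The lowest was Cycs, cytochrome c, with 9.30 and 6.80 in m and p after anti-CCL3 and 8.34 and 7.60 after isotype antibody, but its kept probe set lies on chromosome 19 and not on the gene's own chromosome. All 5 tested mitochondrially encoded subunits, of 13 listed, were lower by at least 1 in both pairs, with a median of -1.97.

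**Figure D3:**
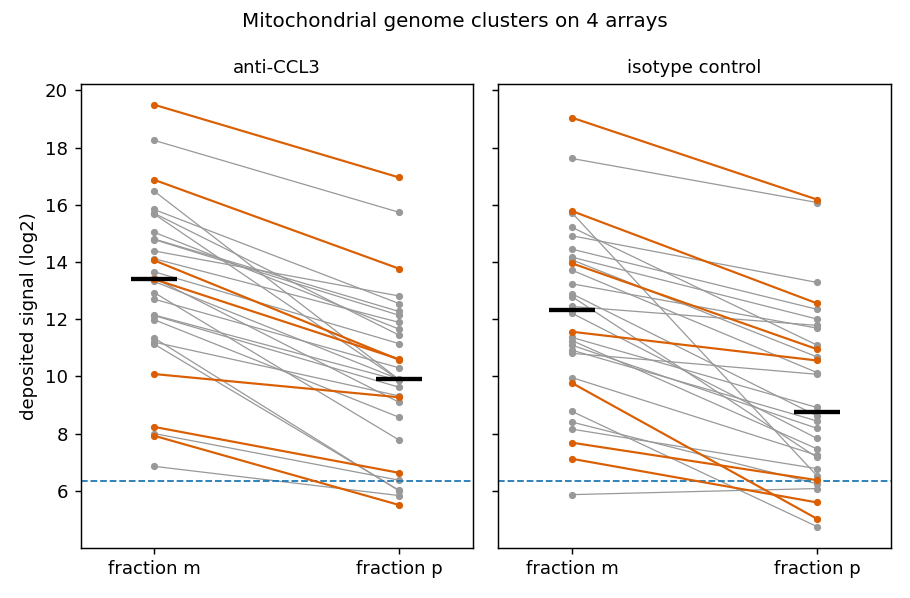
Deposited log2 signal of the 30 mitochondrial clusters in fraction m and fraction p, with the anti-CCL3 pair on the left and the isotype pair on the right; each line is a cluster, orange for those with a single gene name. Black bars are medians, at 13.4 and 9.89, and at 12.3 and 8.77. The dashed line is the negative-control median of 6.34.

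Part of a nuclear stretch with mitochondrial sequence was also lower in fraction p. Between Col19a1 and Adgrb3 on chromosome 1 lie 7 clusters, some of predicted genes that resemble the mitochondrial genome, and the RefSeq gene table lists mt-Atp6 as a synonym of Gm10925. Gm10925 had 16.9 and 15.1 in m and p after anti-CCL3, and 16.3 and 12.8 after isotype antibody. Gm10222 had 11.1 and 9.33, and 9.39 and 7.79. Of 2 unnamed clusters beside them, 1 had 17.5 and 13.4, and 16.3 and 13.3, and the other 9.98 and 6.71, and 8.70 and 5.93. The other 3 clusters differed less: Gm26418 by -0.14 and -0.38, and 2 unnamed ones by -0.48 and -0.18 (-0.16 and 0.18 after quantile normalisation), and by -0.11 and -0.43. The flanking genes were close to 0: Col19a1 differed by 0.05 and 0.14, and Adgrb3 by 0.05 and -0.02. Signal from mitochondrial RNA and from these nuclear copies cannot be told apart on probes that match both.

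Small nucleolar RNAs guide chemical modification of ribosomal and other RNAs, and are cut from introns of host transcripts. As a whole the class, with 996 clusters, differed little, by a median of -0.19 after anti-CCL3 and -0.07 after isotype antibody. Yet 120 clusters (12.05%) were lower by 1 or more in both pairs, against 0.861% of all clusters, and 100 (10.04%) after quantile normalisation. The share rose with brightness. On deposited values it was 1.08% of all clusters with a mean signal from 7 to 8 and 3.47% of those from 8 to 10. For all clusters from 10 to 12 it was 10.2%, and 5.67% after quantile normalisation. Of the 120, 105 lay in a single locus on chromosome 7, between Ube3a and Ipw.

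That locus is imprinted, and the paternal copy gives a long noncoding transcript with 2 tandem arrays of C/D box small nucleolar RNAs, known as the SNORD115 and SNORD116 families, one on each side of Ipw. Most copies carry predicted gene names on this array. In RefSeq gene order, 133 clusters of the class lie between Ube3a and Ipw and 37 between Ipw and Snrpn. The split at Ipw was made after the values were seen. The 170 clusters hold 78 distinct profiles, because copies share probes or sequence, so they are far from independent.

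The 133 clusters on the Ube3a side had a median signal of 10.4 and 8.60 in m and p after anti-CCL3, and 8.68 and 6.61 after isotype antibody. The median paired differences were -1.75 and -2.30, and -1.25 and -2.03 after quantile normalisation. Lower signal in both pairs was seen in 128 of 133. Counting each distinct profile once left 55, of which 50 were lower in both pairs and 30 by at least 1, with medians of -1.37 and -1.41. Fraction p after anti-CCL3 lay close to fraction m after isotype antibody, and the median difference between antibody groups, anti-CCL3 minus isotype, was 2.10 among the m arrays and 2.27 among the p arrays.

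The profile shared by most clusters, 33 of them including Gm24866, had 12.9 and 11.2 in m and p after anti-CCL3, and 10.6 and 8.33 after isotype antibody. The lowest distinct profile was that of Gm25988, with 11.6 and 8.99, and 9.11 and 6.50. Next came Gm24418, with 11.3 and 8.60, and 9.16 and 6.61. Here the anti-CCL3 fraction p array and the isotype fraction m array nearly met while each pair stayed apart. At the other end, Gm23933 was higher in fraction p, by 0.47 and 0.50. Gm25870, the copy next to Ipw, was the brightest of the exceptions, with 14.8 and 14.4 after anti-CCL3 and 14.1 and 15.1 after isotype antibody.

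Beyond Ipw the isotype pair ran the other way. The 37 clusters on the Snrpn side had a median of 9.48 and 7.68 in m and p after anti-CCL3, and of 7.58 and 9.25 after isotype antibody. The median differences were -2.07 and 1.55, and -1.63 and 2.02 after quantile normalisation. All 37 were lower in fraction p after anti-CCL3 and 35 were higher after isotype antibody, 23 of them past 1 in both. Over 23 distinct profiles the medians were -1.84 and 1.39. With 1 array for each combination, this difference between the antibody groups could not be tested, and the isotype values rest on the fraction p array that stood apart.

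The clearest example was Gm25157, at 7.88 and 5.66 after anti-CCL3 and at 5.98 and 10.5 after isotype antibody. Gm26032, whose values 4 clusters share, had 11.998 and 8.51, and 8.85 and 10.6. Snord64, the last of the locus before Snrpn, stayed dim, with 6.02 and 5.86, and 5.84 and 5.44. Another 28 clusters are annotated both to Ipw and to Gm26504, for which RefSeq lists Snord116 as a synonym. Of these, 19 had 11.9 and 8.68 after anti-CCL3 and 8.85 and 10.6 after isotype antibody, and 8 others had 12.2 and 9.06, and 9.18 and 10.7. The last had 9.24 and 8.53, and 8.80 and 8.46.

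Other genes of the region gave mixed values. Ube3a, a ubiquitin ligase gene, differed by -0.05 after anti-CCL3 and 0.42 after isotype antibody. The clusters of the host transcript Snhg14 differed by -0.09 and 0.25, and by -0.09 and -0.03. Magel2, a neighbouring imprinted gene, differed by 0.02 and -0.05. Ndn, also imprinted, was lower in fraction p in both pairs, with 5.94 and 5.33 in m and p after anti-CCL3, and 6.66 and 5.04 after isotype antibody.

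**Figure D4:**
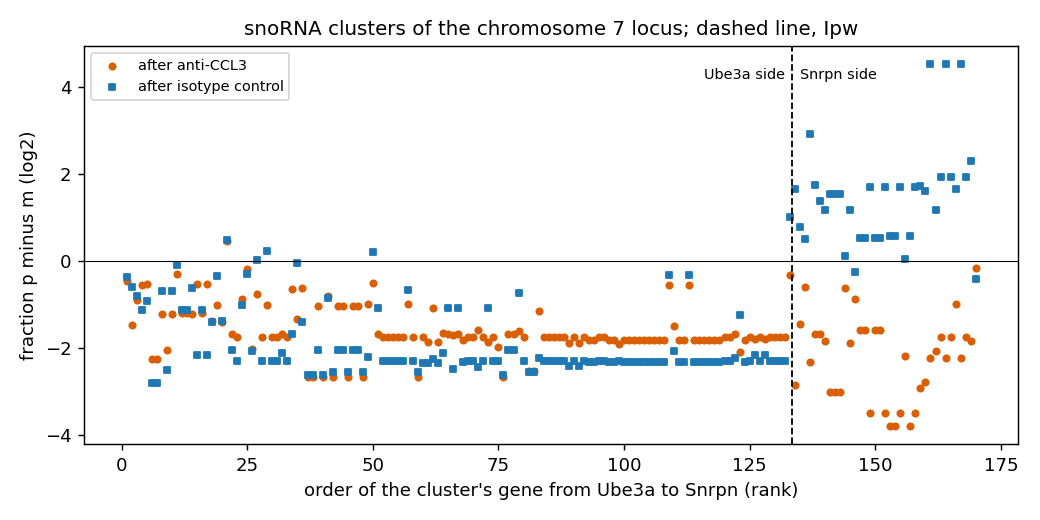
Paired difference (log2 fraction p minus m, deposited values) of the 170 small nucleolar clusters of the chromosome 7 locus in the order of their genes from Ube3a to Snrpn, with circles for the anti-CCL3 pair and squares for the isotype pair. Left of the dashed line at Ipw most clusters are below 0 in both pairs; right of it the anti-CCL3 pair stays below 0 and 35 of 37 clusters are above 0 in the isotype pair.

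Outside the locus, the 826 other small nucleolar clusters had medians of -0.07 and -0.02. On deposited values 15 (1.82%) were lower and 5 (0.605%) higher by 1 or more in both pairs, against 0.861% and 0.114% of all clusters. After quantile normalisation 8 (0.969%) and 5 (0.605%) were, against 0.478% and 0.205%. Another 9 passed 1 in opposite directions on deposited values. Gm23557 on the X chromosome was the lowest after anti-CCL3, with 12.1 and 8.37 in fractions m and p, and 10.5 and 7.86 after isotype antibody. Snord49b, a C/D box RNA, had 6.34 and 4.58, and 5.91 and 4.26. Among the 5 higher, Gm24236 had 8.94 and 11.4, and 7.29 and 11.2, and Snord14e had 4.59 and 7.83, and 4.22 and 8.34. The 19 clusters with Snora names, which guide pseudouridylation, had medians of 0.18 and 0.31 and none past 1 in both pairs. Single arrays could set a fitted value: Snord72 stood at 12.2 in fraction p after anti-CCL3 and between 5.02 and 5.29 on the other 3 arrays.

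Small nuclear RNAs are the RNA parts of the spliceosome. Their 926 clusters had medians of -0.18 and -0.30, which became 0.04 and -0.22 after quantile normalisation. On deposited values 22 (2.38%) were lower and 5 (0.540%) higher by 1 or more in both pairs, against 0.861% and 0.114% of all clusters. After quantile normalisation 6 (0.648%) and 5 (0.540%) were, against 0.478% and 0.205%. Another 11 passed 1 in opposite directions on deposited values. Gm23111 had the lowest pair, with 11.2 and 6.42 in m and p after anti-CCL3 and 10.7 and 6.35 after isotype antibody. Gm24977 had the highest, with 7.06 and 9.65, and 6.93 and 10.5. In both genes the fractions were apart on all 4 arrays, but the genes were picked as the extremes of these same values. Named spliceosomal genes varied. Rnu2-10, a U2 gene read here from its cluster on chromosome 11 and singled out after its values were seen, had 9.80 and 8.37, and 9.33 and 8.19, differences of -1.43 and -1.14, or of -1.10 and -0.95 after quantile normalisation. Rnu11, of the minor spliceosome, differed by -0.18 and -0.17, and by 0.04 and 0.07 after quantile normalisation. Rnu12, also of the minor spliceosome, differed by -0.07 and 0.53.

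5S ribosomal RNA is a component of the large ribosomal subunit that is transcribed from tandem repeats. Its 96 clusters, with 39 distinct profiles, had medians of -1.03 after anti-CCL3 and -0.48 after isotype antibody, and of -0.70 and -0.24 after quantile normalisation. Lower signal in both pairs was seen in 77 of 96 (80.2%), copies with identical values included, against 30.3% of all clusters, but none was past 1 in both. The 5S clusters were brighter than most, with a median signal of 8.91. All clusters with a mean signal from 8 to 10 had medians of -0.26 and -0.24, and of 0.004 and -0.008 after quantile normalisation. The 46 clusters of cytosolic ribosomal proteins, which assemble with 5S RNA, were dimmer, at a median signal of 6.62. Their medians were -0.12 and -0.07.

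MicroRNA genes were near 0 as a class, with medians of -0.08 and 0.03 over 1004 clusters. Lower signal by 1 or more in both pairs was seen in 14 (1.39%) and higher in 7 (0.697%). For all clusters the shares were 0.861% and 0.114%, and for the negative controls 6.36% and 4.12%. After quantile normalisation the counts were 9 (0.896%) and 10 (0.996%), against 0.478% and 0.205% of all clusters. Another 25 microRNA clusters passed 1 in opposite directions in the 2 pairs. The correlation between pairs was 0.03, against 0.05 over the negative controls. Mir340 had 8.96 and 6.92 in m and p after anti-CCL3, and 7.90 and 5.23 after isotype antibody, a fitted difference of -2.35 ± 0.22 (SE, adjusted p of 0.40 in limma). Mir7093 had 7.34 and 5.42, and 6.75 and 5.14. Mir6244 had 8.53 and 6.97, and 9.04 and 7.64. In Mir340, Mir7093 and Mir6244 both fraction p arrays lay below both fraction m arrays, as in 20.5% of all clusters. They too were ranked on these same 4 arrays, which favours such an order.

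Mir6363 had the largest fitted difference of the 28 ranked genes, 3.41 ± 0.29 (SE, adjusted p of 0.40 in limma), from 6.23 to 10.1 after anti-CCL3 and from 6.34 to 9.32 after isotype antibody. Mir7073 had 7.09 and 9.37, and 6.73 and 9.47. Mir450b, of an X-linked microRNA cluster, had 4.82 and 8.73, and 7.36 and 9.62. Mir6338 differed by 1.31 in both pairs. Mir200c, known from epithelial cells, had 12.3 and 11.7 after anti-CCL3 but 11.5 and 8.03 after isotype antibody. Mir6375 again rested on a single array, at 13.6 in fraction p after isotype antibody and between 6.59 and 7.03 on the others.

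Other protein-coding genes with agreeing pairs were few and dim. Cdc42ep2, an effector of the GTPase CDC42, had 7.49 and 5.85 in m and p after anti-CCL3, and 6.64 and 5.06 after isotype antibody. Its fitted difference was -1.61 ± 0.11 (SE), with an adjusted p of 0.40 in limma. Ear14, an eosinophil-associated ribonuclease gene, had 9.74 and 6.18, and 6.92 and 5.53. Krtap31-2, a keratin-associated protein gene, had 7.41 and 6.06, and 8.19 and 6.95. Eola1, on the X chromosome, had 8.87 and 7.62, and 8.91 and 7.42. In each of these 4 genes both fraction p arrays lay below both fraction m arrays, as in 20.5% of all clusters. The genes were ranked on these same 4 arrays, which favours such an order.

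Higher signal in fraction p was smaller. B3gnt4, a glycosyltransferase gene, had 7.07 and 7.95 after anti-CCL3, and 7.07 and 8.05 after isotype antibody. Rnf133, a ubiquitin ligase gene, differed by 0.70 and 0.75, and Teddm3 by 0.87 and 0.60. Arl14, a small GTPase gene, had 5.42 and 6.10, and 6.46 and 8.32. Zfp830, Cd3d, Fpr-rs7 and Pip differed by 0.56 to 0.75. Cd3d encodes a chain of the T cell receptor complex, and its signals of 6.24 and 6.83, and 6.12 and 6.78, fell between the quartiles of the negative controls. The noncoding gene Pmis2 was lower in fraction p, with differences of -1.28 and -1.82.

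Receptor segments of lymphocytes were near 0 as classes, with medians of -0.06 and -0.04 over 139 T cell receptor clusters and of -0.10 and 0.01 over 212 immunoglobulin clusters. Trbv20, a T cell receptor beta segment, had 7.06 and 5.64 after anti-CCL3, and 8.39 and 6.06 after isotype antibody. Igkv6-14, a kappa light chain segment, differed by -0.88 and -1.19. Ighv3-1, of the heavy chain, was higher in fraction p, with 7.12 and 9.27, and 6.76 and 7.69, as was Ighv5-12-4, by 0.87 and 1.08.

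**Figure D5:**
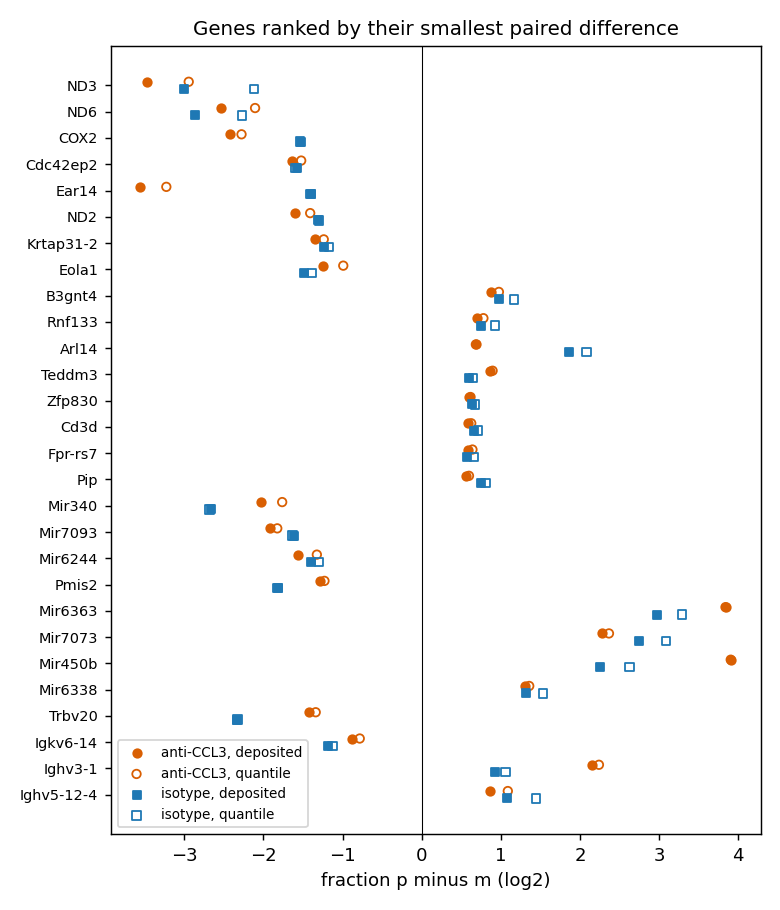
Paired differences (log2 fraction p minus m) of the 28 genes that the ranking rule named, protein-coding genes first, then noncoding genes and receptor segments. Circles show the anti-CCL3 pair and squares the isotype pair; filled symbols are deposited values and open symbols quantile-normalised ones. The rule took genes that keep their direction in both pairs and on both scales; apart from Arl14 in the isotype pair, the higher protein-coding genes differ by less than 1 on deposited values.

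Cell type markers were examined as 14 lists. Of 177 marker genes with a probe set, 4 had a mean above the upper quartile of the negative controls. The mean signal of a list ran from 5.91 to 6.74 on the fraction m arrays and from 5.94 to 6.66 on the fraction p arrays. The median fitted difference of a list ran from -0.19 to 0.11, against -0.05 for all tested genes, and none of the tested members passed the test. Whether other cell types contributed to the differences above was not tested.

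Of the 16 macrophage core genes, 7 were tested, with a median of -0.10; none was higher and 3 were lower in both pairs, against 19.1% and 36.2% of all tested genes. Cd68, a lysosomal glycoprotein gene of macrophages, had 6.92 and 6.78, and 7.04 and 6.77, in m and p after anti-CCL3 and isotype antibody. Lyz2, lysozyme, had 5.94 and 6.28, and 6.38 and 6.08. For Kupffer cells 11 of 18 markers were tested, with a median of -0.02. C1qc, a chain of complement C1q, differed by 0.15 and 0.52, and Clec1b, a lectin receptor, by -0.44 and -0.11. For monocytes and monocyte-derived macrophages, 8 of 16 were tested, with a median of -0.09. Cx3cr1, the fractalkine receptor, had 7.77 and 7.21, and 7.58 and 7.45.

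Other leukocyte lists were similar. The 4 tested eosinophil genes had a median of -0.12, with Ear14 lowest and Prg2, the major basic protein gene, at 0.74 and 0.29. The 9 tested T cell genes had a median of -0.08, and of these Lat, an adaptor of receptor signalling, was lowest at -0.39 and -0.21. The 9 tested NK cell genes had a median of 0.11. Klrb1c, which encodes NK1.1, differed by -0.98 and -0.35, and Xcl1, a chemokine gene, by 0.96 and 0.18. The 8 tested dendritic cell genes had the lowest median of a cell type, -0.19, with 5 of 8 lower in both pairs, against 36.2% of all tested genes.

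Most pathway lists for macrophage functions had medians near that of all tested genes, but their signals were mostly near those of the negative controls. Of 24 integrin genes with a probe set, 19 had a mean below the negative-control median. Of 20 Toll-like receptor and signalling genes, 15 did. Medians near 0 at that level do not show that these functions were alike in the fractions. Integrins had 10 of 25 members tested, a median of 0.03 and no fitted value beyond 0.13. Toll-like receptors and their signalling genes had 8 of 22 tested and a median of -0.05, with Tlr11, a receptor for profilin, highest at 0.26 and 0.36. Fc receptors had a median of -0.10, complement of -0.02, MHC class II and antigen presentation of -0.06, lysosome and scavenger receptors of -0.11, and adhesion GPCRs, the family of Adgre1, of 0.03. Single members lay further out: Adgrl2, an adhesion GPCR, differed by 0.36 and 1.45, and Fcgr4, an Fc receptor, by -0.01 and -0.84, both singled out after their values were seen. Alternative activation genes had a median of 0.04 and pro-inflammatory activation genes of -0.23 (-0.18 after quantile normalisation), below the median of each cell type list, with 3 of 5 tested lower in both pairs. Among the heat shock genes Hspa8, a chaperone gene, was at -1.53 and -4.35, read from a probe set that lies off the gene's own chromosome. It was singled out after its values were seen.

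Some clusters without a gene name differed more than most named genes, and they too were singled out after their values were seen. A profile shared by 9 clusters on chromosomes 10 and 17 had 14.1 and 8.35 in m and p after anti-CCL3, and 16.7 and 7.77 after isotype antibody, a pair of differences of -5.76 and -8.94. A profile shared by 5 clusters, on chromosome 1 or on unplaced sequence, ran the other way, with 14.5 and 16.6, and 14.5 and 16.6. Clusters of the Y chromosome, 558 in number, had medians of -0.30 and -1.14. On deposited values 79 (14.2%) were lower by 1 or more in both pairs, against 0.861% of all clusters. After quantile normalisation 3 (0.538%) were, against 0.478%. These clusters were bright, with a median signal of 10.3. Of all clusters with a mean signal from 10 to 12, 10.2% were lower by 1 or more in both pairs on deposited values.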

How the data were processed

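RNA of the 4 fractions was amplified and labelled with the WT Pico kit, per the labels' protocols, and hybridised singly. The authors deposited a log2 signal for each probe set and array. Per the submitters' processing notes, the authors used RMA and Affymetrix Expression Console, and no version, option or array genome build is given in the sources used here. The files hold 72688 probe sets, of which 65956 are transcript clusters: 31263 had 1 gene after symbols were updated through RefSeq (GRCm38.p6), 1487 several and 33206 none listed.

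RefSeq gave names, gene types and gene order, and no coordinates of clusters were used. Of 930 microRNA genes, 781 had a mature sequence in the RefSeq table. For each of 30707 genes the brightest probe set was kept, and the 15354 genes at or above the median of 6.16 were tested with limma 3.58.1 in R 4.3.3, with antibody and fraction as additive terms, empirical Bayes moderation (prior degrees of freedom 1.68) and Benjamini-Hochberg adjustment at 0.05. The median standard error was 0.13 and the prior keeps errors from falling much below 0.11. The test was tried on simulated data. Classes and lists are described by counts and medians, with no test. Tables were handled with the packages data.table (1.17.8) and pandas.

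Named genes had 1 symbol and a kept probe set on their own chromosome. They were ranked by the smallest of 4 paired differences in one direction (both antibody groups, deposited and quantile-normalised). The first 8 protein-coding genes, 4 noncoding genes and 2 receptor segments of each direction are named, predicted genes, pseudogenes and olfactory receptors being passed over. So are 3 genes for each opposite pattern, the markers, Ccl3, and the 2 highest and 2 lowest tested members of lists and classes discussed. Other genes named were singled out after their values were seen. The members, the 29 gene lists and the classes were chosen with earlier results of these data known.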

Additional observations from a re-analysis of the deposited data

Results flagged for a closer look

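In some transcripts the difference between fraction p and fraction m ran in opposite directions in the antibody groups. Each group has 1 pair of arrays, so the difference between groups was not tested. The small nucleolar clusters between Ipw and Snrpn had a median of -2.07 after anti-CCL3 and 1.55 after isotype antibody.

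The rule for opposite patterns named 6 protein-coding genes. Adam26a, a metalloprotease gene, was at 0.89 after anti-CCL3 and -1.08 after isotype antibody. Cldn34b3, a claudin gene, was at 0.70 and -1.07 in these pairs, and Atp5md, which encodes a small subunit of ATP synthase, at 0.62 and -1.01. In the other direction, Ube2dnl1 was at -1.39 and 1.22, Chrm5, a muscarinic acetylcholine receptor gene, at -1.23 and 1.15, and Krtap19-3, a keratin-associated protein gene, at -0.88 and 1.35. Signals of the 6 genes on single arrays lay between 5.30 and 8.64, where the negative controls have most of their values.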

How the results depend on the processing

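The count of genes called stayed at 0 under the 10 alternatives of the fit. Without the antibody term, that is without the replicate block that pairs arrays within an antibody group, 0 genes passed and the smallest adjusted p was 0.136; over the 10 alternatives it ran from 0.136 to 0.640. Genes lower by 1 or more in both pairs numbered 242, but 151 after quantile and 147 after cyclic loess normalisation; genes higher numbered 17, but 29 and 30. Leaving out an array leaves 1 pair and no test: the count of lower genes was then 706 to 878 and that of higher genes 203 to 240. The median difference of the clusters between Ube3a and Ipw, over the mean of both pairs, was -2.03, and became -1.64 after quantile normalisation, -1.53 after cyclic loess and -1.39 when identical profiles were counted once, an alternative chosen after seeing the data. The mitochondrial median was -2.76, -2.32 after quantile normalisation and -2.36 after cyclic loess. The opposite pattern between Ipw and Snrpn kept its direction under the scalings run. Of 80 named genes with a fitted difference, 4 changed sign under a scaling. Itgam was at 0.00065 after quantile normalisation. Siglecf went to 0.049 and 0.028 after quantile and cyclic loess normalisation, Rnu11 to 0.059 and 0.040, and Rnu1b1 to 0.22 and 0.27. In 14 of the 80, the 2 pairs differ in sign, as they do by rule in the 6 left out. Of those 6, Ube2dnl1 and Chrm5 had fits of -0.09 and -0.04 that turned positive after quantile normalisation. The 28 ranked genes changed sign under none of the alternatives, as the rule that chose them requires for the deposited and quantile-normalised values. With 1 array per combination, signal near the negative controls and 1 residual degree of freedom limit what could be called, and differences of probe sets at an array's highest value are lower bounds.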
